A study of Rattus norvegicus with 18 samples.

Results

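The comparison asked whether the early transcriptional response of neurons to depolarization depends on MEF2. It used 12 of the 18 Affymetrix arrays of the series, chosen by their labels as the 0 h and 1 h arrays of both arms, 3 per group. The groups were MEF2 RNAi at 1 h of KCl, MEF2 RNAi at 0 h, Control at 1 h and Control at 0 h. All were rat hippocampal neurons kept for 10 days in dissociated culture. On day 3 the RNAi arm was given lentivirus with shRNAs directed at MEF2A and MEF2D, and the control arm lentivirus with control shRNAs. On day 10 every culture received the NMDA receptor blocker AP5 and the sodium channel blocker TTX for 1 h. The 1 h cultures were then given 55 mM extracellular KCl for that time, and the 0 h cultures none. The 0 h arrays are therefore neurons under these blockers, not untreated ones. Arrays are labelled as biological replicates 1 to 3 in every group, without saying whether they came from separate animals. So p-values measure a spread between arrays, that of all 18 after differences between replicate numbers were removed.

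Raised extracellular KCl depolarizes the membrane, opens L-type calcium channels and starts calcium signalling to the nucleus. Immediate early genes are then transcribed without new protein synthesis, through factors already bound at their promoters and enhancers, mainly CREB, SRF with its partners, and MEF2. MEF2 proteins recruit class IIa histone deacetylases when neurons are quiet, and calcineurin and other calcium signals turn them toward activation. A MEF2 requirement of the rise itself can appear as an interaction. Here that is the log2 change from 0 h to 1 h in the RNAi arm minus the same change in the control arm. A requirement that lowers both times by the same factor gives no interaction. One met by the MEF2 left after a partial knockdown could also be missed. A negative interaction means a smaller rise, or a larger fall, with knockdown.

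No gene passed the test of this interaction. Of 10934 genes, 0 were called (0%) in limma at an adjusted p under 0.05, and the smallest adjusted p was 0.743. At an unadjusted p under 0.05 there were 730 genes, 6.68% of those tested, where the threshold by itself admits 5%. Of these, 252 (2.3%) had a larger response with knockdown and 478 (4.37%) a smaller one. The 730 became 430 when the first Control 1 h array was left out, 1131 without Control 1 h replicate 3 and 1344 without MEF2 RNAi 0 h replicate 1. Leaving out a whole replicate number gave 1040 without replicate 1, 355 without replicate 2 and 470 without replicate 3. With replicate 1 left out, 2 genes were called for the interaction, and with MEF2 RNAi 1 h replicate 1 left out, 1 gene. The median interaction over all genes was -0.02.

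The arms themselves differed widely at either time. RNAi against control called 3073 genes at 1 h (28.1%) and 2847 at 0 h (26%). The response to 1 h of KCl, averaged over both arms, called 455 genes higher (4.16%) and 1239 lower (11.3%). Their total of 1694 was 915 without the replicate block, 509 without replicate 2 and 760 without replicate 3. Within the arms, 8.27% of genes were called with RNAi and 5.5% in control. Of these, 216 genes were called higher with RNAi (1.98%) and 235 in control (2.15%), and 138 of them were shared, which is 63.9% of the RNAi list and 58.7% of the control list. Called lower were 688 genes with RNAi (6.29%) and 366 in control (3.35%), with 255 shared, or 37.1% of the RNAi list and 69.7% of the control list. A gene called in a single arm is not thereby shown to respond differently, and 0 of all these genes were called for the interaction. For the interaction at 6 h of KCl, which shares the 0 h arrays, 126 genes were called (1.15%), 40 positive and 86 negative.

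The precision of the arrays sets how large an interaction may have gone unseen. The median standard error of an interaction was 0.10 on the log2 scale, and the median 95% interval reached 0.22 to either side. That interval lay wholly between -1 and 1, a 2-fold difference in response either way, for 10888 genes (99.6%). It lay between -0.5 and 0.5 for 9628 genes (88.1%). The early induced genes described below were measured less precisely. For those 39 the median interval reached 0.39 to either side, and it lay between -1 and 1 for 32 (82.1%) and between -0.5 and 0.5 for 6 (15.4%). These intervals are per gene and not adjusted for the number of genes.

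At the RNA level knockdown was present at both times and was partial. Mef2a, a targeted family member, read 577, 594 and 549 at 1 h and 595, 620 and 596 at 0 h in the RNAi arm, against 2331, 2121 and 2051 at 1 h and 2001, 1800 and 1739 at 0 h in the control arm. Its RNAi minus control difference was -1.92 at 1 h and -1.61 at 0 h (adjusted p = 7.54e-09 and 4e-08). Mef2d, also targeted, differed by -0.42 at 1 h and -0.52 at 0 h (adjusted p = 0.000183 and 2.95e-05). Its mean signals were 312 with RNAi against 417 in control at 1 h, and 276 against 397 at 0 h. Mef2c, which no shRNA was labelled against, differed by -0.38 at 1 h (adjusted p = 0.000663) and by -0.18 at 0 h (adjusted p = 0.074). The interactions of Mef2a, Mef2c and Mef2d were -0.31, -0.21 and 0.10, none of them called. The other 3 Mef2a probe sets had interactions of -0.68, -0.34 and -0.30.

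The early response was examined gene by gene on a set chosen by the sum of the arms' responses, which favours neither sign of their difference. It held 39 induced genes (0.357% of all genes), called higher over both arms by at least 1 log2 unit, and 8 reduced genes (0.0732%). All 39 induced genes were called higher in the RNAi arm on its own, and all 39 in the control arm. A gene that rose modestly in a single arm could not enter the set, so these counts follow largely from the choice. Their median rise was 2.14 with RNAi and 1.98 in control, while the median of their interactions was -0.16, against -0.02 for all genes. Of the 39, 23 had a negative interaction (59%, against 55.9% of all genes) and 16 a positive one. Unadjusted p was under 0.05 for 13 of them (33.3%, against 6.68% of all genes), 10 negative and 3 positive. In 11 of the 39 the RNAi responses all lay below the control responses, and in 1 all above, patterns that 12.2% and 5.33% of all genes showed. The median of the set differed between replicate numbers, at -0.11, 0.03 and -0.14 for replicates 1, 2 and 3, with 25, 18 and 24 of the 39 genes below 0. Where arrays were left out, the induced genes were chosen anew by the same rule, so the members could change. The median of the set so chosen was 0.07 without MEF2 RNAi 1 h replicate 1 and -0.04 without replicate 1. It was -0.01 when either MEF2 RNAi 0 h replicate 1 or Control 0 h replicate 3 was left out. Across the 39 genes the arms' responses correlated at 0.913, a description over genes, which are not independent.

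**Figure D1:**
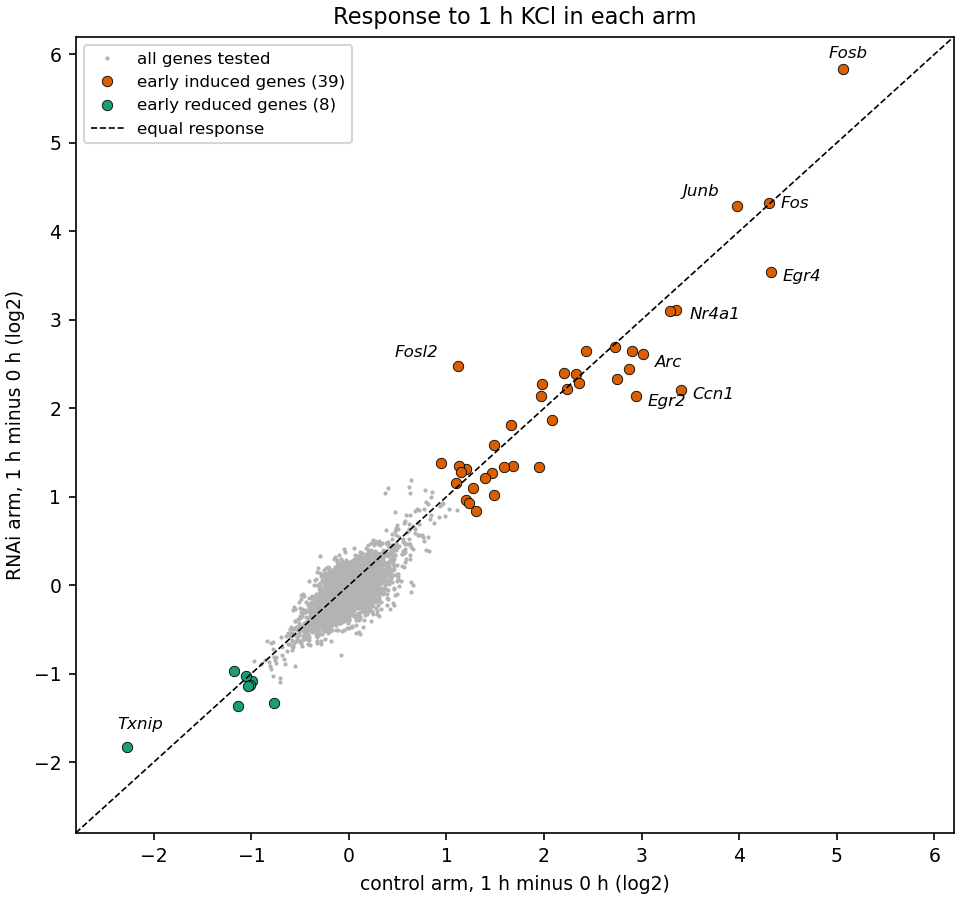
Change from 0 h to 1 h of KCl in the RNAi arm (vertical axis) against the control arm (horizontal axis), both log2, for 10934 genes; the dashed line marks equal responses. The 39 induced genes (orange) and 8 reduced genes (green) lie along that line, with Fosl2 and Fosb above it and Ccn1, Egr2 and Egr4 below it.

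Genes of the Fos and Jun family encode the subunits of the AP-1 transcription factor. Fos itself read 9975, 10760 and 11020 at 1 h and 751, 397 and 500 at 0 h in the RNAi arm, against 12310, 11250 and 11040 at 1 h and 1193, 613 and 273 at 0 h in the control arm. The rises were 19.9-fold with RNAi and 19.7-fold in control, an interaction of 0.02 (SE 0.44, 95% interval -0.91 to 0.95). On the log2 scale the control signals at 0 h spread the most of the 4 groups, and the interval is wide. Junb rose 19.5-fold with RNAi and 15.7-fold in control, and its interaction of 0.31 (SE 0.13, 0.02 to 0.60) was not called. Fosb rose 57.1-fold with RNAi and 33.4-fold in control, an interaction of 0.77 (SE 0.27, 0.21 to 1.34), also not called. Its signals were 6075, 6365 and 7235 at 1 h and 137, 104 and 106 at 0 h in the RNAi arm, against 4922, 6632 and 7863 at 1 h and 213, 240 and 134 at 0 h in the control arm. The arms overlapped at 1 h (difference 0.04, adjusted p = 0.907), and at 0 h Fosb was lower with RNAi by 0.73 on the log2 scale (adjusted p = 0.00943).

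Fosl2, which encodes the Fos-related protein Fra-2, had the largest positive interaction of the genes tested. With symbols starting with LOC or RGD passed over, it also had the smallest p. It read 736, 1278 and 1303 at 1 h and 186, 190 and 199 at 0 h in the RNAi arm. In the control arm it read 595, 926 and 942 at 1 h and 343, 392 and 374 at 0 h. The rise was 5.58-fold with RNAi and 2.18-fold in control, an interaction of 1.36 (SE 0.26, 0.80 to 1.91, unadjusted p = 0.000103, adjusted p = 0.743 in limma). Responses of 1.98, 2.75 and 2.71 with RNAi lay above those of 0.79, 1.24 and 1.33 in control, replicate by replicate. At 1 h the arms did not pass the test (0.41, adjusted p = 0.111), while at 0 h Fosl2 was lower with RNAi (-0.95, adjusted p = 0.00143). A second, dimmer probe set of Fosl2 had an interaction of 0.55 (SE 0.22). Without replicate 1 the Fosl2 interaction was called, at 1.44 (adjusted p = 9.93e-05), and without MEF2 RNAi 1 h replicate 1 likewise, at 1.61 (adjusted p = 0.0498), within a range over all alternatives of 9.93e-05 to 1.

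Jun had the opposite sign. It read 6163, 6247 and 7133 at 1 h and 3734, 3413 and 3758 at 0 h in the RNAi arm, against 7516, 6455 and 6539 at 1 h and 2630, 2974 and 2683 at 0 h in the control arm. The rise was 1.79-fold with RNAi and 2.47-fold in control, an interaction of -0.47 (SE 0.12, -0.73 to -0.20) that was not called. Its 3 RNAi responses lay below the 3 control responses. Jun was higher with RNAi at 0 h (0.40, adjusted p = 0.00362) and did not pass the test at 1 h (-0.07, adjusted p = 0.611). Its other probe sets gave -0.42 and -0.17.

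**Figure D2:**
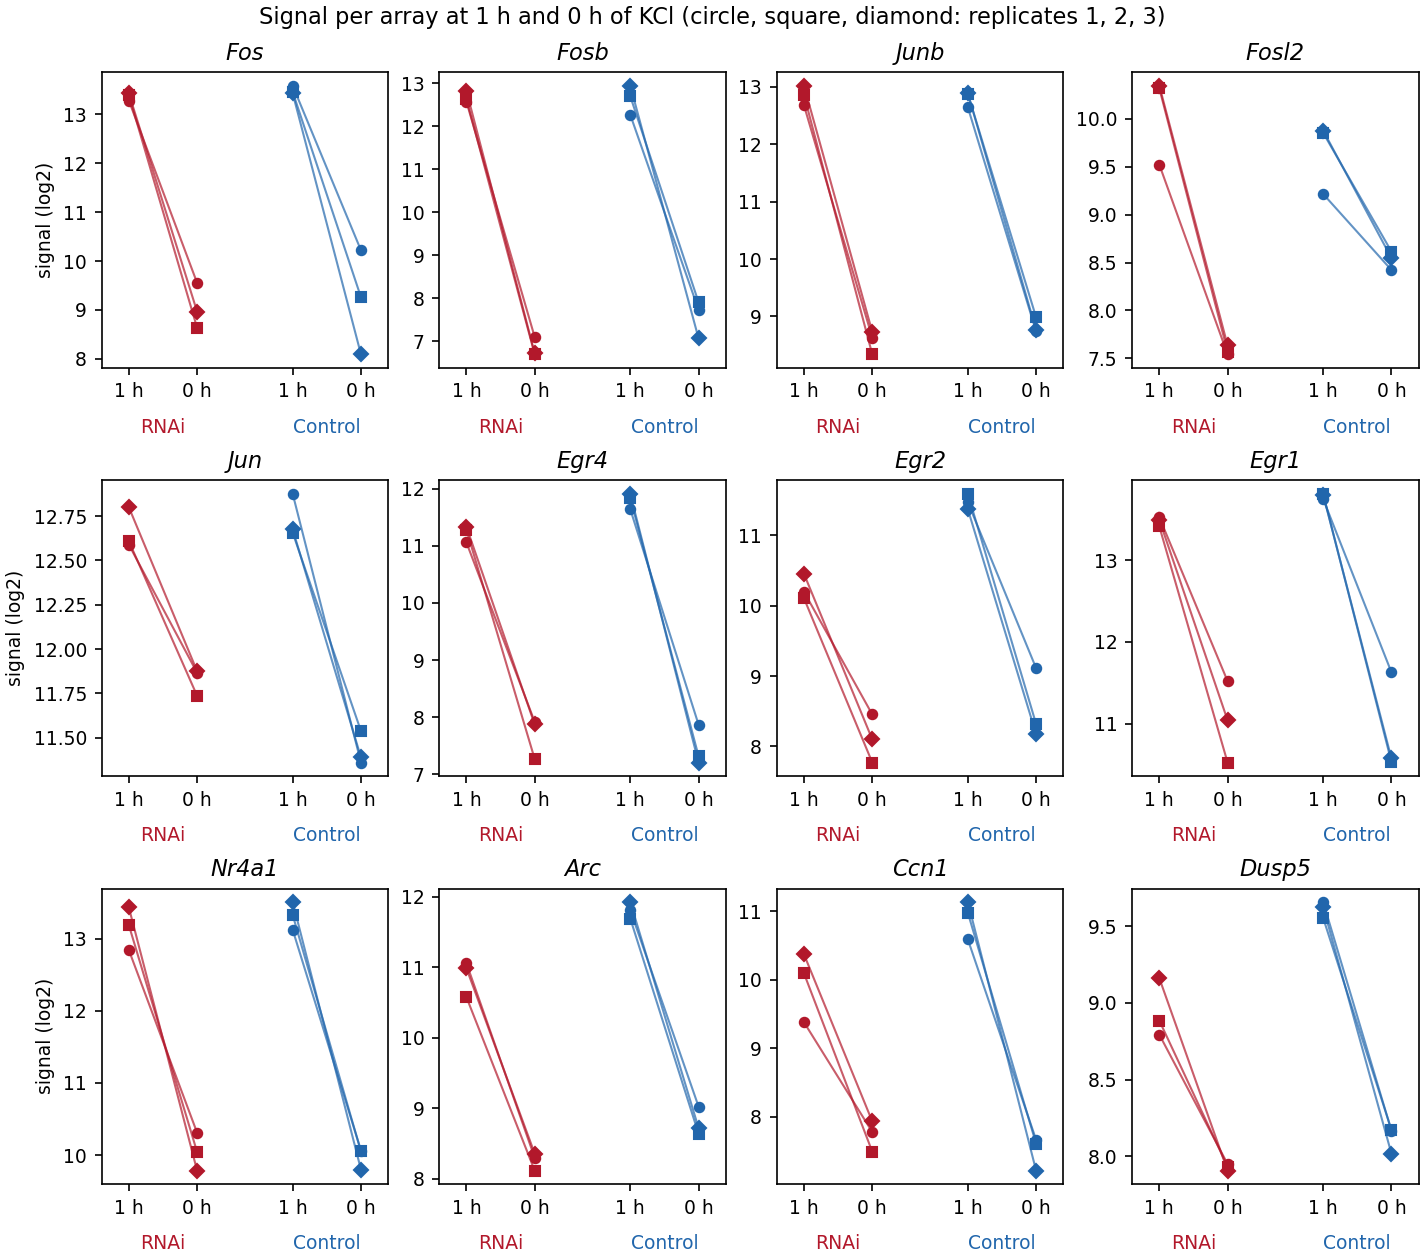
Signal (log2) of 12 early genes on each array, at 1 h and 0 h of KCl in the RNAi arm (red, left) and the control arm (blue, right); lines join arrays of the same replicate number. Each gene was higher at 1 h than at 0 h on every array of either arm; at 0 h Fosl2 and Arc lay lower, and Jun higher, with RNAi.

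The Egr genes encode zinc-finger transcription factors that SRF and its partners switch on. Egr1 read 11770, 10890 and 11520 at 1 h and 2935, 1473 and 2107 at 0 h in the RNAi arm, against 13740, 14360 and 14240 at 1 h and 3164, 1479 and 1524 at 0 h in the control arm. It rose 5.45-fold with RNAi and 7.33-fold in control (interaction -0.43, SE 0.26, -0.99 to 0.14). Egr2, which was lower with RNAi at 1 h (-1.23, adjusted p = 0.000198), read 1174, 1101 and 1400 at 1 h and 351, 218 and 274 at 0 h in the RNAi arm, against 2834, 3081 and 2648 at 1 h and 553, 319 and 289 at 0 h in the control arm. Its rise was 4.42-fold with RNAi and 7.69-fold in control, and the 3 RNAi responses lay below the 3 control responses (interaction -0.80, SE 0.27, -1.37 to -0.23). Egr4 rose 11.6-fold with RNAi and 20.1-fold in control (interaction -0.79, SE 0.23, -1.27 to -0.31). Egr4 was lower with RNAi at 1 h (-0.57, adjusted p = 0.0142) and did not pass the test at 0 h (0.22, adjusted p = 0.341). None of the 3 interactions was called, and Egr3 did not pass the filter on low signals. Egr2 and Egr4 each had a dimmer probe set below that filter. For Egr2 it gave -0.29, and for Egr4 it gave 0.17, with log2 changes of 0.13 with RNAi and -0.04 in control.

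The Nr4a genes encode orphan nuclear receptors, and Nr4a1 is among the best known MEF2 targets in other cells. Nr4a1 read 7332, 9310 and 11040 at 1 h and 1268, 1054 and 881 at 0 h in the RNAi arm, against 8906, 10270 and 11630 at 1 h and 1069, 1060 and 890 at 0 h in the control arm. The arms overlapped at both times, with rises of 8.62-fold with RNAi and 10.2-fold in control (interaction -0.24, SE 0.30, -0.89 to 0.40). Nr4a2 rose 8.58-fold and 9.78-fold in the same order (interaction -0.19, -0.57 to 0.19), and Nr4a3 2.41-fold and 2.77-fold (interaction -0.20, -0.58 to 0.17). For Nr4a3 the level at 1 h was lower with RNAi by 0.39 on the log2 scale (adjusted p = 0.0281). The intervals of all 3 exclude a 2-fold smaller rise with knockdown, though for Nr4a1 narrowly. These Nr4a3 values are those of its brightest probe set. Further Nr4a3 probe sets gave interactions of -0.07 and -0.09. The first of them rose more, by 2.58 with RNAi and 2.65 in control on the log2 scale.

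Kruppel-like factor 4, encoded by Klf4, rose 6.49-fold with RNAi and 6.61-fold in control (interaction -0.03, SE 0.16, -0.37 to 0.32). Maff, a small Maf protein, rose 6.29-fold with RNAi and 5.38-fold in control (interaction 0.23, -0.29 to 0.74). Ier2 read 5386, 5368 and 6514 at 1 h and 1329, 1002 and 1101 at 0 h in the RNAi arm, against 8431, 7765 and 7408 at 1 h and 1404, 1062 and 1070 at 0 h in the control arm. Every RNAi response of Ier2 lay below every control response (interaction -0.41, SE 0.14, -0.72 to -0.11, not called), and its level at 1 h was lower with RNAi (-0.45, adjusted p = 0.00336). Atf3, a stress-induced relative of the AP-1 factors, named after its values were seen, had an interaction of -0.61 (SE 0.20, not called) and a higher level with RNAi at 0 h (0.44, adjusted p = 0.0356).

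Among effector genes, Ccn1 had the most negative interaction of the genes tested. Ccn1 encodes a secreted matrix protein also known as Cyr61. It read 666, 1091 and 1322 at 1 h and 220, 180 and 245 at 0 h in the RNAi arm. The control arm gave 1538, 2013 and 2244 at 1 h and 203, 195 and 149 at 0 h. The arms overlapped at 0 h (0.24, adjusted p = 0.397), and at 1 h every RNAi array lay below every control array (-0.95, adjusted p = 0.00178). Ccn1 rose 4.63-fold with RNAi and 10.6-fold in control, an interaction of -1.19 (SE 0.27, -1.77 to -0.61, unadjusted p = 0.000545, adjusted p = 0.743 in limma). Over all alternatives its adjusted p stayed between 0.267 and 1.

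Arc, whose protein acts in trafficking of AMPA receptors and is a reported MEF2 target, was lower with RNAi at both times. It read 2130, 1526 and 2026 at 1 h and 314, 277 and 327 at 0 h in the RNAi arm, against 3592, 3306 and 3889 at 1 h and 520, 398 and 421 at 0 h in the control arm. Those differences were -0.94 at 1 h and -0.54 at 0 h (adjusted p = 6.22e-06 and 0.000846). The rise was 6.14-fold with RNAi and 8.09-fold in control, an interaction of -0.40 (SE 0.14, -0.69 to -0.10) that was not called. By replicate number the Arc interaction was -0.03, -0.59 and -0.58.

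Several other effectors rose in both arms. Gadd45g and Gadd45b, growth arrest and DNA damage genes, rose 5.24-fold and 3.5-fold with RNAi, against 5.03-fold and 3.16-fold in control (interactions 0.06 and 0.15, SE 0.19 and 0.22). Rgs2, a brake on G protein signalling, rose 2.55-fold with RNAi and 3.2-fold in control (interaction -0.33, SE 0.21). Bdnf, the neurotrophin, rose 1.81-fold with RNAi and 2.03-fold in control (interaction -0.17, -0.59 to 0.25), and its other probe set gave 0.09. Homer1, a scaffold gene with an activity-induced short form, did not respond on its brightest probe set (interaction -0.11, SE 0.10). The single Homer1 probe set that rose strongly did so by 2.33 with RNAi and 3.10 in control on the log2 scale, an interaction of -0.77 (SE 0.32).

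MAP kinase phosphatases remove the activating phosphates of ERK and related kinases. Dusp1 rose 6.26-fold with RNAi and 7.49-fold in control (interaction -0.26, SE 0.12, -0.52 to 0.00), with -0.16 on its other probe set, and Dusp1 was higher with RNAi at 0 h (0.41, adjusted p = 0.0027). Dusp5 read 444, 472 and 572 at 1 h and 247, 244 and 240 at 0 h in the RNAi arm, against 807, 751 and 789 at 1 h and 287, 289 and 259 at 0 h in the control arm. At 1 h the arms of Dusp5 did not overlap (-0.66, adjusted p = 7.7e-05), and its interaction was -0.48 (SE 0.13, -0.75 to -0.20). Dusp4 had the opposite sign, with a rise of 2.05-fold in the RNAi arm and 1.54-fold in control (interaction 0.41, SE 0.14, 0.12 to 0.71). None of the 3 was called.

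**Figure D3:**
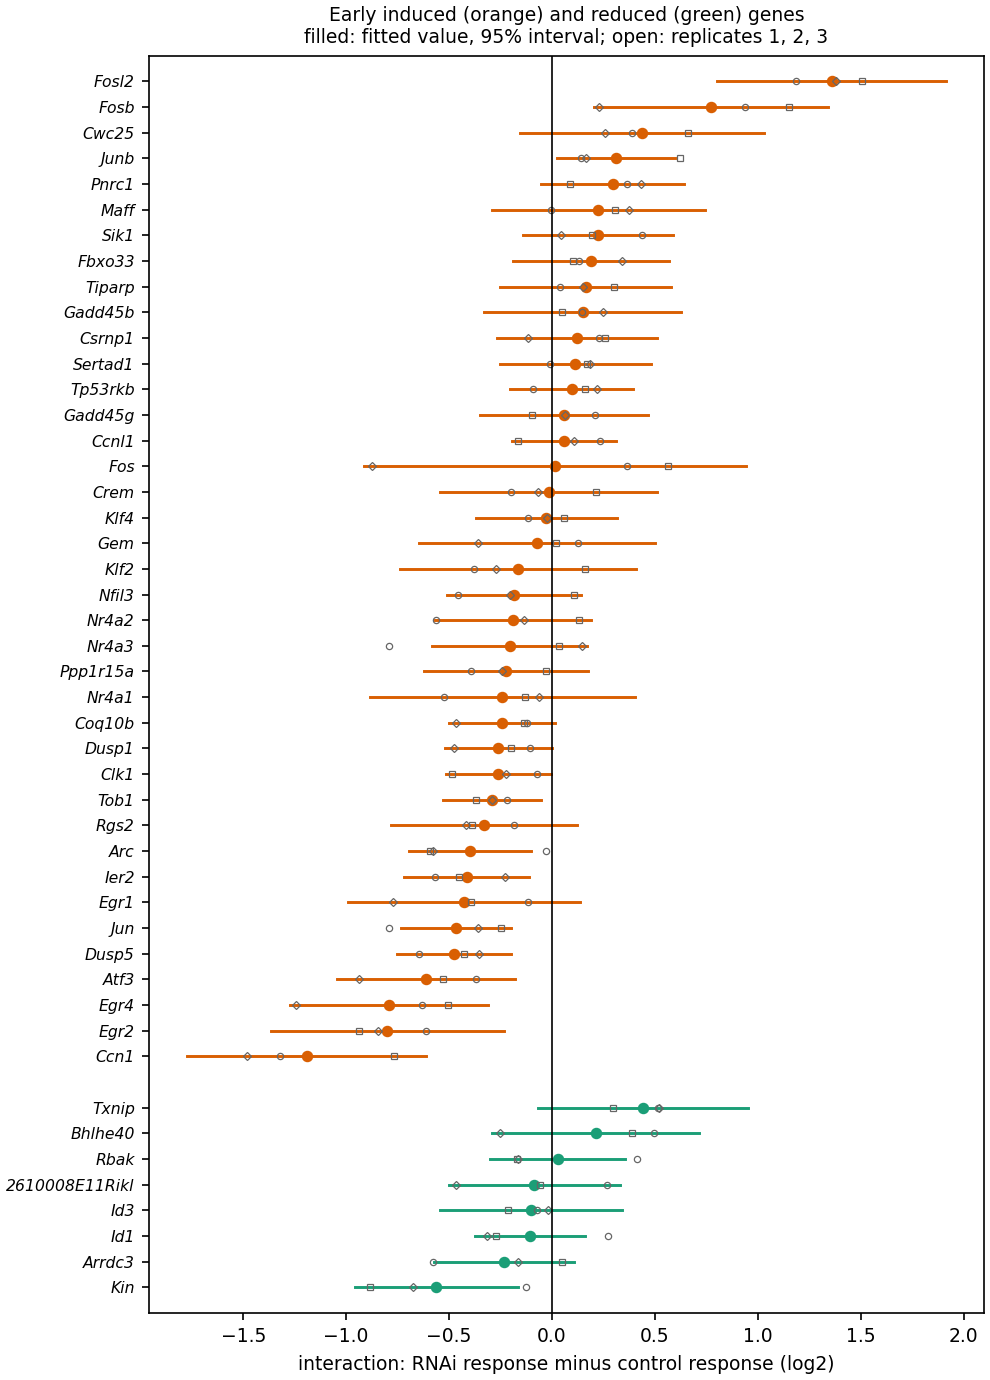
Interaction (RNAi response minus control response, log2) of the 39 induced genes (orange) and 8 reduced genes (green); filled points are fitted values with unadjusted 95% intervals, and open circles, squares and diamonds the values of replicates 1, 2 and 3. Values run from 1.36 for Fosl2 down to -1.19 for Ccn1, and most intervals of the genes between them include 0.

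Levels at the single times placed these differences. Of the 39 induced genes, 9 were called lower and 3 higher with RNAi at 1 h, against backgrounds of 13.9% and 14.2% of all genes called lower and higher. The 9 were Egr2, Egr4, Arc, Ccn1, Ier2, Dusp5, Nr4a3, Klf2 and Tob1, and the 3 were Ppp1r15a, Cwc25 and Tp53rkb. At 0 h, 4 were called lower (Fosl2, Fosb, Arc and Pnrc1) and 6 higher (Jun, Dusp1, Atf3, Ppp1r15a, Coq10b and Tp53rkb), against backgrounds of 10.2% and 15.9%. Arc was the gene called lower at both times, while Ppp1r15a and Tp53rkb were called higher at both. These comparisons share arrays with the interaction and with each other, so they restate it and do not add to it.

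The 8 reduced genes were called lower in both arms, which again follows largely from their choice over both arms. Txnip, which binds and inhibits thioredoxin, read 1425, 733 and 799 at 1 h and 3433, 3115 and 3512 at 0 h in the RNAi arm, against 954, 545 and 584 at 1 h and 3278, 2839 and 3682 at 0 h in the control arm. It fell 3.56-fold with RNAi and 4.83-fold in control (interaction 0.44, SE 0.24, -0.07 to 0.95), and at 1 h its level was higher with RNAi by 0.49 on the log2 scale (adjusted p = 0.0426). Arrdc3, an arrestin-domain relative of Txnip, fell 2.58-fold and 2.2-fold in the same order of arms (interaction -0.23), and its dimmer probe set, below the filter, gave 0.32. Id1 and Id3, which block basic helix-loop-helix factors, fell 2.18-fold and 2.2-fold with RNAi, against 2.03-fold and 2.05-fold in control. Kin, which encodes a DNA- and RNA-binding protein, fell 2.51-fold with RNAi and 1.7-fold in control (interaction -0.56, SE 0.18, -0.95 to -0.17). Over the 8 reduced genes the median interaction was -0.09, and every interval lay between -1 and 1.

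Promoters of the early genes were read to show what regulatory letters lie near their starts. The RefSeq table of assembly GRCr8 held a promoter, from 250 bases before to 50 bases after the start, for 30 of the 39 induced genes and 9114 of the genes tested. The short CREB site TGACG, searched on both strands, lay in 21 of the 30 (70%) and in 32.4% of the promoters of genes tested. The full CRE TGACGTCA, which contains that CREB site on both strands, lay in 5 (16.7%, against 3.36%). The CArG box bound by SRF lay in 3, those of Egr1, Egr2 and Dusp5 (10%, against 1.33%). The MEF2 consensus lay in 0 of the 30, against 1.4%, and these windows hold no enhancers, so this says only that those letters are not there. The promoters of the genes at either end of the interaction, Fosl2 and Ccn1, and of Egr2 and Dusp1 are printed below, with TGACG, its reverse complement and CArG boxes in capitals.
Fosl2 (chr6:30039220-30039519, minus strand): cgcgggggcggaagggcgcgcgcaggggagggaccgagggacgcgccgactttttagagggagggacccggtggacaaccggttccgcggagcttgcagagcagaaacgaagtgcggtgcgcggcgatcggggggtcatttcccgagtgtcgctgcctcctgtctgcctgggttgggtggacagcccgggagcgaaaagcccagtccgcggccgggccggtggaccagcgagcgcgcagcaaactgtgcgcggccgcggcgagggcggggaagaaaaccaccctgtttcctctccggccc
Ccn1 (chr2:237225640-237225939, minus strand): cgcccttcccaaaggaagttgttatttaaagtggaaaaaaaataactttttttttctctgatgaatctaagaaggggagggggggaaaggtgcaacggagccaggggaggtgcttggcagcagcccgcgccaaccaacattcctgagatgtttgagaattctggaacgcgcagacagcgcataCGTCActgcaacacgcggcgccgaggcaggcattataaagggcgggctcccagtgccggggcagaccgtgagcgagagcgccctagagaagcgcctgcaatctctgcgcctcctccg
Egr2 (chr20:21054392-21054691, minus strand): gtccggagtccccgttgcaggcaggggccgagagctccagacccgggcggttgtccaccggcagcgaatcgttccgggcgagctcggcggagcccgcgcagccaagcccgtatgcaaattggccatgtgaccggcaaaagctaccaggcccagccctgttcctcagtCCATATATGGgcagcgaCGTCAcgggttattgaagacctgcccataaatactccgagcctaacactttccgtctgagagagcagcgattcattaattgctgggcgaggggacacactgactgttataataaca
Dusp1 (chr10:17184603-17184902, plus strand): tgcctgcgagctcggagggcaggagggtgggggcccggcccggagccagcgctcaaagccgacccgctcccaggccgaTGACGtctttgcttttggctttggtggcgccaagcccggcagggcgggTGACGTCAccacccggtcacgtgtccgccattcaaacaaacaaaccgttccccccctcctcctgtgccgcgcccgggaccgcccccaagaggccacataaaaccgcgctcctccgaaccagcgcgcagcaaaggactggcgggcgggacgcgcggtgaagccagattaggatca
Fosl2 shows none of these motifs in the window. Ccn1 has 1 CREB site, Egr2 a CArG box and 1 CREB site, and Dusp1 3 CREB sites, a pair of which form its full CRE.

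Besides Fosl2 and Ccn1, 18 genes were among the 10 with the smallest interaction p in either direction, symbols starting with LOC or RGD passed over. Slc2a3, the neuronal glucose transporter GLUT3, read 2406, 3673 and 3869 at 1 h and 1222, 1560 and 1812 at 0 h in the RNAi arm. In control it read 2790, 3329 and 3271 at 1 h and 2158, 2575 and 2391 at 0 h. The level at 0 h was lower with RNAi (-0.65, adjusted p = 0.00031), at 1 h the arms overlapped (0.06, adjusted p = 0.736), and the interaction was 0.70 (SE 0.15, 0.39 to 1.02, unadjusted p = 0.000228). Its dimmer probe set, below the filter on low signals, gave 0.44.

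Nfkbid, which encodes a nuclear inhibitor of NF-kappa-B, differed at 1 h instead. It read 501, 767 and 743 at 1 h and 351, 318 and 294 at 0 h in the RNAi arm, against 358, 459 and 455 at 1 h and 319, 322 and 337 at 0 h in the control arm. At 1 h it was higher with RNAi (0.64, adjusted p = 0.000684), and its interaction was 0.67 (SE 0.16, 0.32 to 1.02). Without replicate 1 it was called, at 0.83 (adjusted p = 0.0118, range over its alternatives 0.0118 to 1). Foxq1, a forkhead factor, read 236, 376 and 338 at 1 h and 215, 236 and 296 at 0 h in the RNAi arm, against 197, 219 and 239 at 1 h and 235, 311 and 263 at 0 h in the control arm. All 3 Foxq1 responses were above 0 with RNAi and below 0 in control (interaction 0.63, SE 0.15), and its dimmer probe set, below the filter, gave 0.45. The other positive interactions by this rule were those of Tspyl2, Dmwd, Ptpa, Foxp4, Stk4 and Tmem79, between 0.27 and 0.46.

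On the negative side, Otud1, a deubiquitinase gene, read 437, 577 and 707 at 1 h and 586, 628 and 766 at 0 h in the RNAi arm. The control arm gave 875, 1061 and 1006 at 1 h and 766, 708 and 658 at 0 h. Otud1 signals were lower at 1 h than at 0 h in each RNAi replicate and higher in each control replicate (interaction -0.68, SE 0.17, -1.05 to -0.31). Wnt4, a secreted Wnt ligand, had an interaction of -0.48 (SE 0.12) and a lower level at 1 h with RNAi (-0.59, adjusted p = 0.000119). Rnd1 had a log2 change of -0.002 with RNAi and rose by 0.37 in control on the log2 scale (interaction -0.37, SE 0.10). Cdc73, part of the PAF1 complex of RNA polymerase II, and Cbx8, a Polycomb protein, had interactions of -0.46 and -0.38. Pkd2, Lrrc8d, Bivm and Lmbr1 completed this group, between -0.34 and -0.49. A second Pkd2 probe set that passed the filter gave -0.01, and one of Ptpa gave -0.03 where the first had 0.27. None of these 10 was called. The responses of the arms did not overlap in these or in the 10 positive ones, which follows largely from choosing genes by the smallest p on the same arrays.

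**Figure D4:**
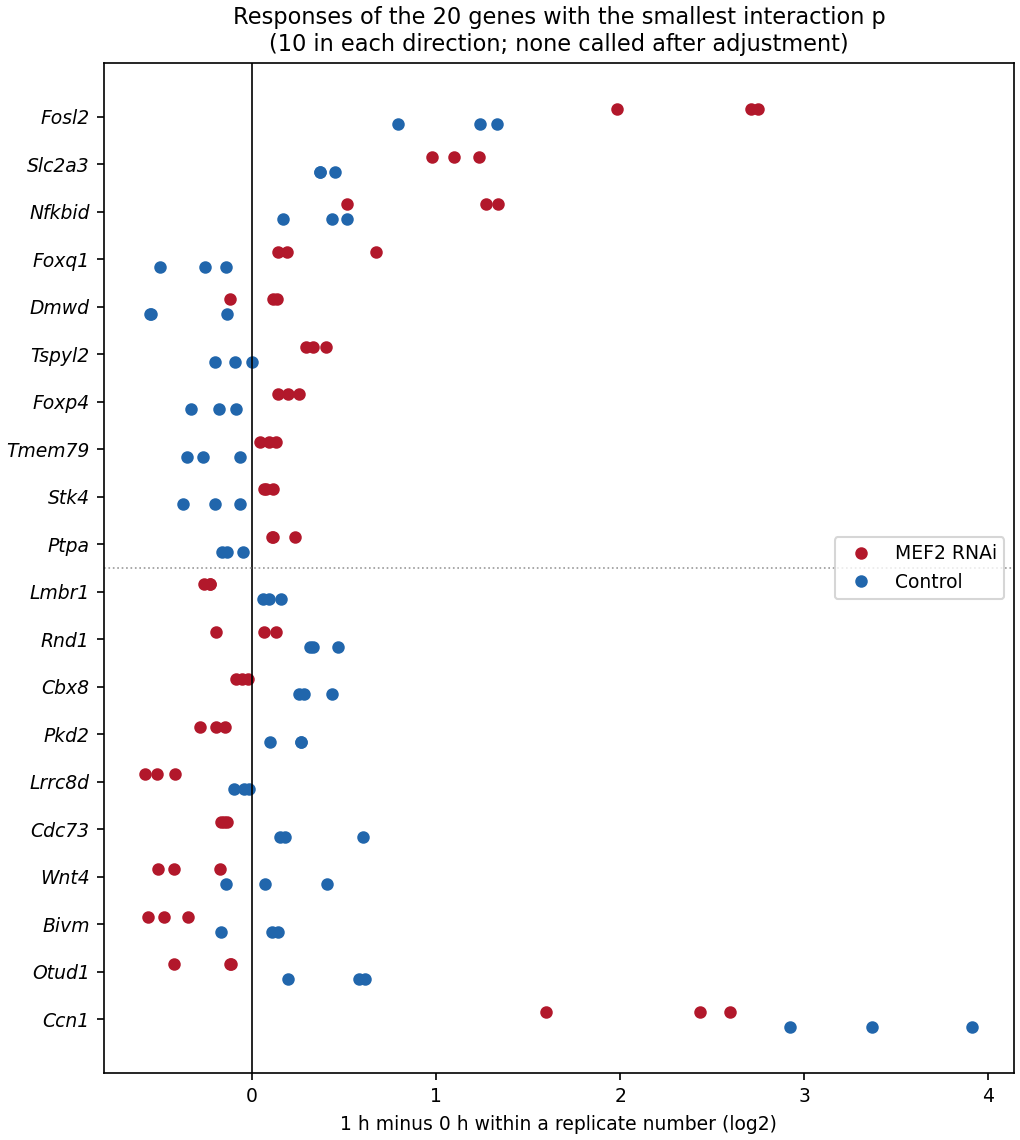
Response to 1 h of KCl (log2, arrays of the same replicate number) in the RNAi arm (red, upper row) and the control arm (blue, lower row). Shown are the 10 positive and 10 negative interactions with the smallest p, symbols starting with LOC or RGD passed over. The genes were chosen for their separation on these arrays, and beyond Fosl2, Ccn1, Slc2a3 and Nfkbid no single response is larger than the 0.67 of Foxq1.

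Gene lists, chosen with earlier results of these arrays known, described the wider pattern, and 0 members of any list were called. Immediate early transcription factors (28 tested) had a median interaction of -0.10, with 19 below 0 and 8 at an unadjusted p under 0.05 (28.6%, against 6.68% of all genes), 5 negative and 3 positive. Their median was -0.12, 0.07 and -0.15 in replicates 1, 2 and 3. Activity-regulated synaptic effectors (15) and MAP kinase phosphatases and feedback inhibitors (16) had medians of 0.00 and -0.02. The reported MEF2 targets (20) had a median of -0.16, and 17 of them lay below 0 (85%, against 55.9% of all genes). By replicate number its median was -0.15, 0.05 and -0.17, and so above 0 in replicate 2. Jun, Arc and Camk2a had an unadjusted p under 0.05. Members of that list may have been picked on these very arrays, and it shares Nr4a1, Jun, Klf2, Klf4, Csrnp1, Arc and Homer1 with the lists before it. The CREB and SRF pathway (13) and calcium signalling to the nucleus (24) had medians of -0.06 and -0.05. In the calcium list Camk2a, a calcium/calmodulin-dependent kinase subunit, had an interaction of -0.29 (SE 0.12).

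Lists of neuronal membrane proteins lay slightly below 0. Voltage-gated potassium channels (11) had a median of -0.18 and voltage-gated calcium and sodium channels (18) one of -0.12, with no member at an unadjusted p under 0.05. GABA receptors and inhibitory synapse genes (11) had a median of -0.08, with 10 below 0. Its medians by replicate were -0.35, 0.11 and -0.09, and those of the potassium channels -0.14, 0.04 and -0.01. Among glutamate receptors and excitatory scaffolds (25, median -0.05), the AMPA receptor gene Gria1 had an interaction of -0.57 (SE 0.22), with -1.32 in replicate 1 against -0.03 and -0.37 in replicates 2 and 3, and the kainate receptor gene Grik5 one of 0.31 (SE 0.13). Secreted factors and neuropeptides (20) and genes of heat shock and endoplasmic reticulum stress (18) had medians of 0.02 and 0.01 and no member at an unadjusted p under 0.05. Circadian clock genes (16), apoptosis and p53 genes (12), interferon genes (7), the MEF2 family with class IIa deacetylases (7) and Txnip with its arrestin-domain relatives (5) had medians between -0.05 and 0.08. Housekeeping controls (11) had a median of 0.01 and ranged from -0.09 to 0.05.

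**Figure D5:**
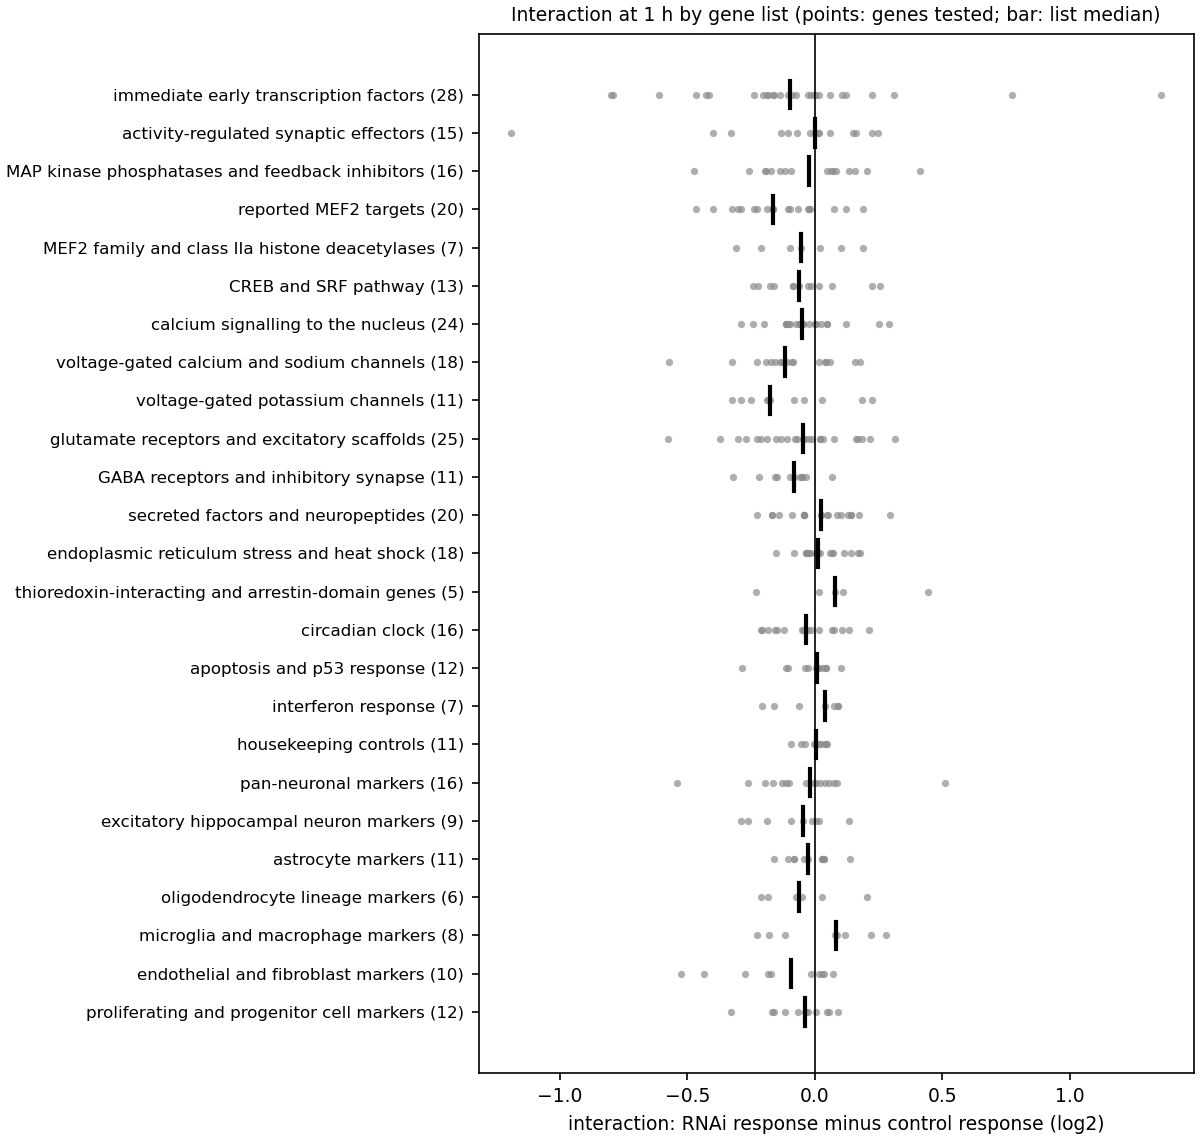
Interaction at 1 h (log2) of each tested member of 25 gene lists (grey points, number tested in brackets) with the list median (black bar). Medians lie between -0.18 and 0.08, and the widest spread is among the immediate early transcription factors.

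Cell type markers described the cultures. Pan-neuronal markers had a median interaction of -0.02 and excitatory hippocampal neuron markers one of -0.05, while those of astrocytes, oligodendrocyte lineage, microglia, endothelial cells with fibroblasts and proliferating cells had medians of -0.03, -0.06, 0.08, -0.09 and -0.04. In the pan-neuronal list Syn1, a synaptic vesicle protein, had an interaction of 0.51 (SE 0.16) and Elavl3, a neuronal RNA-binding protein, one of -0.26 (SE 0.07), neither called. Summed signals of 10 excitatory neuron markers were 13416 to 16677 at 1 h and 14778 to 18016 at 0 h with RNAi, against 19051 to 21397 at 1 h and 18268 to 22231 at 0 h in control. They were thus lower in the RNAi arm at both times without overlap. In bulk RNA fewer cells of a type cannot be told from less RNA per cell. Camk2a in this list is also among the reported MEF2 targets. The 16 pan-neuronal markers gave sums that overlapped between the arms. With RNAi these were 89836 to 102520 at 1 h and 89681 to 101244 at 0 h. In control they were 99590 to 103462 at 1 h and 93702 to 102235 at 0 h. Sums of 11 astrocyte markers overlapped between the arms, at 71503 to 83388 at 1 h and 71425 to 83390 at 0 h with RNAi, against 61253 to 77903 at 1 h and 60600 to 77759 at 0 h in control. Whether the makeup of the cultures bears on the interactions was not tested.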

How the data were processed

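Total RNA was hybridised to single-channel Affymetrix rat arrays, and the authors deposited 1 table of linear signal intensities for 18 arrays, with medians of 240 to 248. Neither the labels nor the table record how the intensity was summarised or scaled. Probe sets were named from a 2016 platform annotation: of 31099, 20832 had 1 symbol, 436 several and 9831 none, and 20764 matched RefSeq's GRCr8 table. Intensities were floored at the 20th percentile (72.6), taken to log2, and each gene was represented by its brightest probe set. Genes above the 40th percentile of their array on at least 3 arrays were tested, 10934 of 14218. limma 3.58.1 in R 4.3.3 was fitted to all 18 arrays, with 6 groups and the replicate number as a block, so the 6 h arrays lend their spread. p-values were adjusted by Benjamini-Hochberg over all genes tested and called under 0.05. A separate fit, over the probe sets past the filter and all those of the named and early genes, gave the values of further probe sets. The number of arrays limits the precision.

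Arrays of the same replicate number were treated as paired: their deviations from group means correlated at 0.168 to 0.652 in all 18 same-number pairs. The 36 other pairs averaged -0.217 and reached 0.41. Deviations within a group sum to 0, so an average above 0 in the same-number pairs pulls that of the other pairs below 0. The average of the other pairs therefore adds no separate evidence of pairing. Arrays of a group correlated at 0.994 to 0.998. Genes were named as the 10 with the smallest interaction p in each direction, a set of activity genes, the 15 largest rises and 10 largest falls, and up to 2 members of each list. The rankings by p, rise and fall passed over symbols starting with LOC or RGD. The members and lists were chosen with earlier results of these data known. The fit was run on simulated data with independent noise and no differences between replicate numbers, so that run did not try the pairing. Alternatives covered the block, arrays used, floor, filter, normalization, probe sets, variance trend and left-out arrays.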

Additional observations from a re-analysis of the deposited data

Results flagged for a closer look

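For 6 genes named for the 1 h interaction, or among the early induced genes, the interaction at 6 h of KCl passed the test, so the response at that time differed between the arms. On the log2 scale the 6 h interaction was -1.43 for Atf3 (adjusted p = 0.00614 in limma), -1.36 for Egr4 (adjusted p = 0.00957) and -1.36 for Otud1 (adjusted p = 0.00365). It was -0.80 for Wnt4 (adjusted p = 0.00724), -0.33 for Elavl3 (adjusted p = 0.0405) and 0.93 for Foxq1 (adjusted p = 0.00874). Their 1 h interactions were -0.61 for Atf3, -0.79 for Egr4, -0.68 for Otud1, -0.48 for Wnt4, -0.26 for Elavl3 and 0.63 for Foxq1, none of them called. The interactions at both times share the 0 h arrays, and the difference between 6 h and 1 h was not tested. Over all genes 126 were called at 6 h (1.15%).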

How the results depend on the processing

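The count of genes called for the interaction was 0 under all 10 settings that kept every array of the 4 groups. Leaving out arrays gave 0 to 2: Fosl2 without MEF2 RNAi 1 h replicate 1, and Fosl2 and Nfkbid without replicate 1. Without the replicate block, 363 genes had an unadjusted p under 0.05 in place of 730, and the response averaged over arms called 915 in place of 1694. With every probe set tested, 1228 had an unadjusted p under 0.05, where more features were tested. Leaving out arrays moved that count between 355 and 1344, and the averaged count between 509 (without replicate 2) and 1793, with 760 without replicate 3. The median of the early induced genes, which were chosen anew in each setting, moved between -0.2533 and 0.0653. The causes were not tested. The knockdown of Mef2a and Mef2d passed under every setting. Signs were followed for 80 genes, and 61 of them kept their sign throughout. The 80 were the named and early genes, without those named only from a list at an unadjusted p of 0.05 or more. Under quantile normalization the sign turned for Klf4 (0.0214) and Crem (0.0424). With arrays left out it turned for 19 genes, whose values ran as follows. The ranges were -0.45 to 0.56 for Fos, -0.17 to 0.13 for Klf4, -0.4892 to 0.0083 for Nr4a1, -0.3784 to 0.089 for Nr4a3, -0.3181 to 0.0653 for Bdnf, -0.0279 to 0.3505 for Gadd45b, -0.14 to 0.24 for Gadd45g, -0.2351 to 0.0823 for Id3 and -0.0171 to 0.2159 for Mef2d. They were -0.38 to 0.12 for Klf2, -0.20 to 0.25 for Crem, -0.059 to 0.2911 for Csrnp1, -0.29 to 0.20 for Gem, -0.329 to 0.0073 for Nfil3, -0.0073 to 0.3847 for Tiparp, -0.0614 to 0.1692 for Ccnl1, -0.0332 to 0.4433 for Bhlhe40, -0.165 to 0.1245 for Rbak and -0.32 to 0.11 for 2610008E11Rikl.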
